A study of Homo sapiens with 12 samples.

Results

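High-numbered microRNAs (miRNAs), here those numbered miR-1000 and above, were described in HEK293T cells. A miRNA was included when its name had the form miR-N with N of at least 1000 and its reads summed to at least 60 over the 6 small RNA libraries. Of the 1153 miRNAs in the deposited count table, such a number was carried by 563, and 93 of these (16.5%) reached the read minimum. The 93 were thus chosen by their summed reads, so their levels are given as a description, while differences between the groups were not used in the choice. Just inside the minimum lay miR-3133 with 60 reads, miR-1285-5p with 62 and miR-10523-5p with 63. Just outside it lay miR-3180-3p with 57 reads, miR-5000-3p with 56 and miR-1277-3p with 53.

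HEK293T is a human embryonic kidney cell line that carries the large T antigen. Every group received a GFP reporter plasmid, 2 µg per well, and RNA was taken 48 h later. The BCL2L11 group carried in the reporter's 3′ untranslated region a stretch of BCL2L11, the TRIM9 group a stretch of TRIM9, and the GFP group was the control. Both stretches act as triggers for target-directed degradation of a miRNA, in which a target RNA that pairs extensively with a miRNA brings about the loss of that miRNA, and the triggers were aimed at miR-221/222 and at miR-218, none of which is among the 93. Each group has 2 small RNA libraries (RNA of 18 to 40 nt) and 2 poly-A libraries, which the submitters call biological replicates. The cells were a transfected pool. The labels name 2 transfection reagents without tying them to samples. Titles number the first libraries of the groups 1 to 3 (replicate 1, library set 1 below) and the second ones 4 to 6 (replicate 2, set 2), and do not say what the numbers mean.

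A miRNA is cut from a hairpin, first in the nucleus by DROSHA with DGCR8 and then in the cytoplasm by DICER1, and 1 arm of the hairpin (5p or 3p) is usually kept in an Argonaute protein, where bases 2 to 8 (the seed) find target mRNAs. Numbers were given to miRNAs in the order in which they were registered, so high numbers are in the main those found later by deep sequencing, and many of these are primate-specific and low in most tissues. Many such hairpins lie within introns of protein-coding genes and are transcribed with them, and some, the mirtrons, are cut out by splicing in place of DROSHA.

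The mature sequences of the high-numbered miRNAs that carried most reads, passed the test between library sets or stood close to another miRNA are shown here, from the RefSeq table of GRCh38.p14, 5′ to 3′ with the seed in capitals. The 7 with most reads come first.
miR-3158-3p: aAGGGCUUccucucugcaggac
miR-1180-3p: uUUCCGGCucgcgugggugugu
miR-7974: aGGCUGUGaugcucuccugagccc
miR-1307-3p: aCUCGGCGuggcgucggucgug
miR-4521: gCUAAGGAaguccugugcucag
miR-7706: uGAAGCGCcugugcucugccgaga
miR-3615: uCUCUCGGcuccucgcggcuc
The 6 that passed the test between the library sets are next.
miR-3909: uGUCCUCUagggccugcagucu
miR-1278: uAGUACUGugcauaucaucuau
miR-1299: uUCUGGAAuucugugugaggga
miR-3131: uCGAGGACugguggaagggccuu
miR-1306-5p: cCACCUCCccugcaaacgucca
miR-4717-3p: aCACAUGGguggcuguggccu
The last 4 are those whose seeds or sequence stood closest to another miRNA, as given below.
miR-4421: aCCUGUCUguggaaaggagcua
miR-5699-3p: uCCUGUCUuuccuuguuggagc
miR-1271-5p: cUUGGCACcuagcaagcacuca
miR-1269b: cUGGACUGagccaugcuacugg

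RefSeq held a mature sequence for 83 of the 93 miRNAs, and few shared a seed with another miRNA of at least 60 reads. The 83 sequences had 82 different seeds. The shared one was ccugucu in miR-4421 and miR-5699-3p. Against the other miRNAs with at least 60 reads and a sequence, 1 seed was shared: miR-1271-5p carries uuggcac, the seed of miR-96-5p, and had 1789 reads where miR-96-5p had 27180. Below that minimum, miR-1269a (12 reads) differs by 1 edit from miR-1269b (3894 reads), so that reads could be split between them by the authors' counting. The median length was 22 nt, as in the other miRNAs that had at least 60 reads. Median GC content was 54.5% in the 83 sequences (lowest 22.7%, highest 83.3%), against 47.6% in 288 sequences of other miRNAs with at least 60 reads. It was also 54.5% in the 427 sequences of high-numbered miRNAs under 60 reads. The first base was U in 53.0% of the high-numbered miRNAs and in 41.7% of the others. These are descriptions of 2 lists of names, with no test.

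High-numbered miRNAs formed 563 of the 1153 names in the table and a small share of the reads. The 563 names together held 0.589% of the 32275270 reads assigned to miRNAs, and the 93 held 185806 of their 190236 reads. The median summed count was 287 reads among the 93, against 1247 reads among 321 other miRNAs with at least 60 reads, which were 54.4% of the 590 other names. The 470 high-numbered names outside the rule had a median of 4 reads, and 341 of them had 10 or fewer. The share that reached the minimum was lower at high numbers, with 29 of 66 names from miR-1000 to miR-1499 at 60 reads or more (43.9%), against 16 of 136 from miR-4500 to miR-5499 (11.8%) and 16 of 181 from miR-5500 upwards (8.84%).

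A few miRNAs carried most of the reads. miR-3158-3p alone held 23.0% of the reads of the 93, the top 5 held 59.2% and the top 15 held 85.3%. Levels below are CPM, the usual scaling of counts to library size, with edgeR's TMM factors, and give replicate 1 before replicate 2. miR-3158-3p had 1491 and 1138 CPM in BCL2L11 libraries, 1258 and 1421 CPM in TRIM9 libraries and 1468 and 1158 CPM in GFP libraries. By its mean level it stood at rank 36 of all 443 miRNAs tested, and its 3 groups overlapped. Its hairpin is annotated on both strands at chr10:101601417-101601497 (hg38), so 1 mature sequence comes from 2 genes, MIR3158-1 within DPCD on the plus strand and MIR3158-2 on the minus strand.

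miR-1180-3p, from chr17:19344506-19344574 within B9D1, a gene of the ciliary transition zone, varied least among the 15 most abundant. It had 816 and 802 CPM in BCL2L11 libraries, 865 and 879 CPM in TRIM9 libraries and 761 and 727 CPM in GFP libraries. Its libraries lay in the order TRIM9, BCL2L11, GFP without overlap, across a span of 1.21 times from the lowest to the highest, and no difference passed the test. miR-7974, from chr19:11495544-11495622 within the zinc finger gene ZNF653, had 468 and 582 CPM in BCL2L11 libraries, 437 and 499 CPM in TRIM9 libraries and 457 and 582 CPM in GFP libraries. Replicate 2 was the higher one in each group, and the groups overlapped. Both arms of the miR-1307 hairpin, at chr10:103394253-103394401 within the ATP synthase subunit gene ATP5MD, were among the 93. miR-1307-3p had 366 and 429 CPM in BCL2L11 libraries, 415 and 381 CPM in TRIM9 libraries and 393 and 511 CPM in GFP libraries, again with overlap.

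miR-4521, from chr17:8186945-8187004 with no gene around it on its strand, was high in 1 library. It had 276 and 307 CPM in BCL2L11 libraries, 504 and 328 CPM in TRIM9 libraries and 315 and 322 CPM in GFP libraries. TRIM9 replicate 1 stood above the other 5, which lay between 276 and 328 CPM. miR-7706, whose hairpin at chr15:85380596-85380662 starts 25 bases inside the start of AKAP13, a kinase-anchoring protein, had 386 and 341 CPM in BCL2L11 libraries, 267 and 298 CPM in TRIM9 libraries and 348 and 347 CPM in GFP libraries. The TRIM9 libraries were the lowest of the 6. miR-3615, at chr17:74748613-74748699, overlaps the start of SLC9A3R1, a scaffold of membrane transporters, whose first annotated base lies 15 bases after that of the hairpin. It had 255 and 278 CPM in BCL2L11 libraries, 187 and 189 CPM in TRIM9 libraries and 278 and 233 CPM in GFP libraries. Its TRIM9 libraries also lay below the other 4, which overlapped.

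The next 8 ran from miR-4473 at a mean of 224 CPM, through miR-3909 (176), miR-1299 (142), miR-1269b (121), miR-1278 (100.4), miR-10525-3p (63.5) and miR-4661-5p (57.7), to miR-1271-5p at 55.4 CPM. Among these 8 the span from the lowest to the highest library was narrowest for miR-4473, at 1.38 times, and widest for miR-10525-3p, at 2.31 times. miR-10525-3p had 50.02 and 71.4 CPM in BCL2L11 libraries, 46.9 and 108 CPM in TRIM9 libraries and 53.4 and 50.9 CPM in GFP libraries. Both its lowest and its highest value came from the TRIM9 group. Neighbours in this order of levels mostly overlapped: miR-1299 spanned 94.6 to 195 CPM and miR-1269b 89.3 to 144 CPM.

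**Figure D1:**
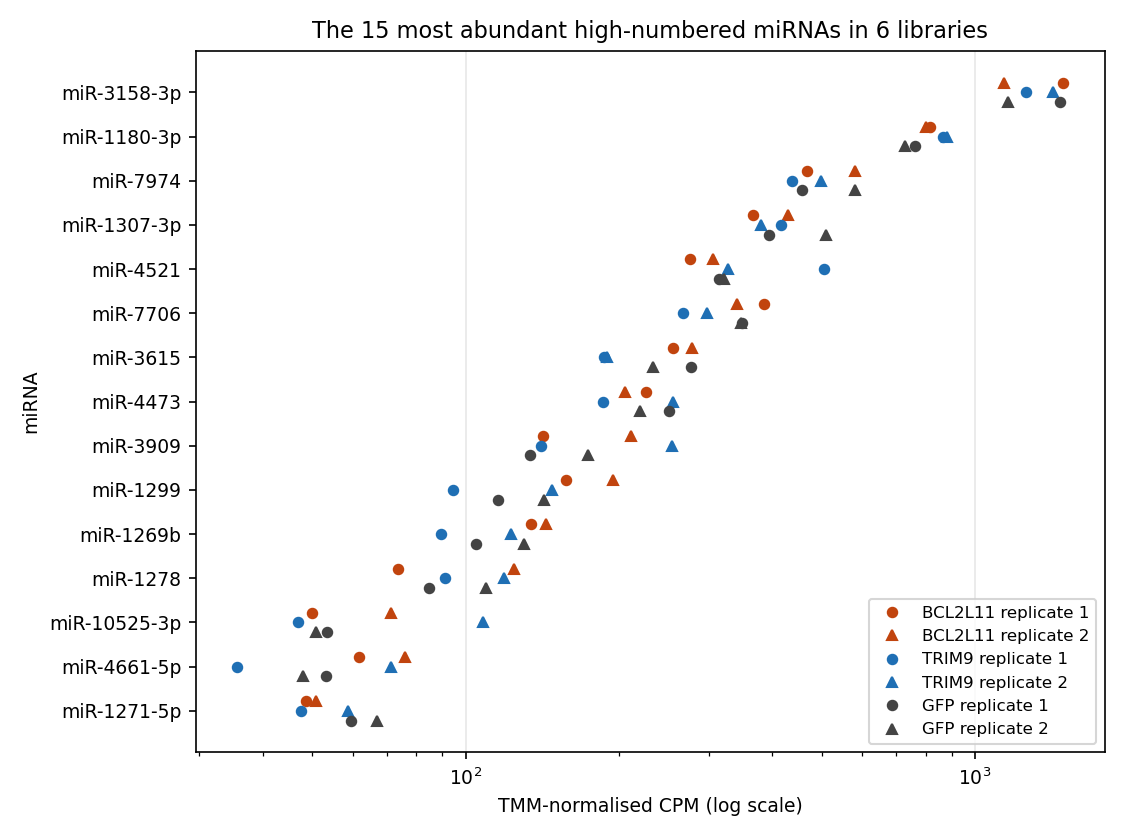
Level of the 15 most abundant high-numbered miRNAs in each small RNA library, in TMM-normalised CPM on a log axis. Colours are the groups and shapes the replicates. miR-3158-3p lies highest, between 1138 and 1491, and the TRIM9 libraries are the lowest for miR-7706 and miR-3615.

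Further down the order levels fell to a mean of 1.85 CPM for miR-3174. A mean of at least 20 CPM was reached by 27 of the 93. Within this range the median gap between the 2 libraries of a group, on the log2 scale, was 0.23 in BCL2L11, 0.37 in TRIM9 and 0.25 in GFP, against 0.20, 0.32 and 0.22 in 195 other miRNAs of that range. All 93 were detected in 5 libraries and 91 in TRIM9 replicate 2. There miR-4423-3p and miR-3174 had 0 reads, which allows up to 3.

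The libraries themselves differed in ways that touch these levels. They held 5018875 to 6091151 reads, and no pair of the 15 was identical. miR-148a-3p, the most abundant miRNA, took 57.7% to 67.2% of the reads and the TMM factors ran from 0.778 to 1.17. TRIM9 replicate 2 had the highest miR-148a-3p share and the lowest factor, so counts of TRIM9 comparisons are also given without it. In the poly-A libraries 6 of 7 HEK293T markers were at 1 FPKM or more in every library, the exception being PAX2 at 0.0886 to 0.613 FPKM. Of the markers of other cells PTPRC, CD3E, HBB and KRT5 were at 0, while HBA1 reached 7.45 FPKM, COL1A1 4.02 and ALB 2.06. In RNA of a whole culture, fewer cells that hold a miRNA and less of it per cell cannot be told apart.

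The share of reads held by the 93 miRNAs was measured as a single value per library. It was 0.621% and 0.536% in BCL2L11 libraries, 0.634% and 0.467% in TRIM9 libraries and 0.600% and 0.606% in GFP libraries, and the exact binomial 95% interval in TRIM9 replicate 2 ran from 0.461% to 0.473% (counting error only). The means were 0.579% ± 0.0605 in BCL2L11, 0.550% ± 0.118 in TRIM9 and 0.603% ± 0.00394 in GFP (SD, n = 2 each). Each trigger group had 1 library above and 1 below both GFP libraries. The differences were -0.0246 points for BCL2L11 against GFP, -0.0526 for TRIM9 against GFP and 0.0281 for BCL2L11 against TRIM9. By a two-sided exact permutation test p = 1 in each of the 3 comparisons, and 2 against 2 libraries cannot go below 0.333. With miR-148a-3p left out of the denominator BCL2L11 against GFP turned to 0.0112 points. The sign also rested on single libraries: BCL2L11 against GFP was 0.0182 without BCL2L11 replicate 2, TRIM9 against GFP was 0.0310 without TRIM9 replicate 2, and BCL2L11 against TRIM9 was -0.0148 without BCL2L11 replicate 1 and -0.0555 without TRIM9 replicate 2. The 2 libraries of lowest share, BCL2L11 replicate 2 and TRIM9 replicate 2, were also those with most miR-148a-3p, at 63.1% and 67.2% of the reads. With the TMM factors the summed level of the 93 was 5799 and 5828 CPM in BCL2L11 libraries, 5439 and 6007 CPM in TRIM9 libraries and 5709 and 5693 CPM in GFP libraries.

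BCL2L11 against GFP asks whether the trigger aimed at miR-221/222 moved other miRNAs. By edgeR's quasi-likelihood test with Benjamini-Hochberg adjustment over the 443 miRNAs, 0 of the 93 passed at an adjusted p of 0.05, beside 0.226% of all tested. At an unadjusted p under 0.05 the count was 0 of 93, beside 1.35%. DESeq2 gave 0 by both measures, beside 0.226% and 0.903% of all. The median log2 fold change was 0.03 over the 93 and 0.00 over all, with 1 of the 93 (1.08%) beyond 1 in either direction, against 3.16% of all. The libraries did not overlap for 19 miRNAs that were higher and 15 that were lower with BCL2L11, beside 12.4% and 15.8% of all miRNAs tested, where 19 and 15 are 20.4% and 16.1% of 93.

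The 5 of lowest p in this comparison did not pass (adjusted p = 0.995 each, edgeR). miR-1257, from within the transcription factor subunit gene TAF4, had 2.23 and 3.22 CPM in BCL2L11 libraries, against 1.64 and 0.714 CPM in GFP libraries, a log2 fold change of 1.202 (SE 0.63). The groups did not overlap, and the 2 GFP values rest on 9 and 4 reads. Without GFP replicate 1 the value was 1.92, and without GFP replicate 2 it was 0.73. miR-3173-5p, whose hairpin lies within DICER1, had 5.02 and 4.47 CPM in BCL2L11 libraries, against 1.82 and 3.39 CPM in GFP libraries, a log2 fold change of 0.86 (SE 0.47), which was 0.50 without GFP replicate 1 and 1.38 without GFP replicate 2. miR-1299 had 157 and 195 CPM in BCL2L11 libraries, against 116 and 142 CPM in GFP libraries. Its log2 fold change was 0.45 (SE 0.26), and it was 0.44 within set 1 and 0.45 within set 2, but 0.27 without BCL2L11 replicate 2. miR-1271-5p had 48.5 and 50.9 CPM in BCL2L11 libraries, against 59.6 and 67.1 CPM in GFP libraries, at -0.35 (SE 0.21). The groups of these 3 did not overlap. miR-3940-3p, at -0.69 (SE 0.42), had 3.53 and 2.5 CPM in BCL2L11 libraries, against 5.27 and 4.46 CPM in GFP libraries.

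TRIM9 against GFP, the comparison for the trigger aimed at miR-218, also had 0 of 93 past the adjusted threshold in edgeR, beside 0% of all miRNAs tested. At an unadjusted p under 0.05 there were 5 of 93, beside 4.51% of all, where 5 are 5.38%. DESeq2 gave 0 and 1, beside 0% and 2.03% of all, where 1 is 1.08% of 93. The count of 5 became 2 without TRIM9 replicate 2 (beside 4.54% of all) and 8 without TRIM9 replicate 1 (beside 7.55%). It became 3 without GFP replicate 1 (beside 3.52%) and 3 without BCL2L11 replicate 1 (beside 3.92%), where 2, 3 and 8 are 2.15%, 3.23% and 8.6% of 93. The median log2 fold change was -0.09 over the 93 and 0.01 over all, and 10.8% of the 93 lay beyond 1, against 6.55% of all. The libraries did not overlap for 14 that were higher and 26 that were lower with TRIM9, beside 14.4% and 15.8% of all tested, where 14 and 26 are 15.1% and 28% of 93. TRIM9 replicate 1 held the lowest TMM-scaled level of the 6 libraries for 32 of the 93 (34.4%), beside 19.9% of all 443. That library had the highest TMM factor (1.17) and the highest unscaled share of reads in the 93 (0.634%). Its summed level after scaling was the lowest (5439 CPM). TRIM9 replicate 2 had the lowest factor (0.778) and share (0.467%) and the highest summed level (6007 CPM). With total reads instead of TMM the median log2 fold change was -0.26 over the 93 and -0.11 over all. The part of either TRIM9 library in the lower values was not tested.

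miR-4677-5p had the lowest p of this comparison. It had 2.91 and 3.36 CPM in TRIM9 libraries, against 7.82 and 5.17 CPM in GFP libraries, so the groups did not overlap. Its log2 fold change was -1.05 (SE 0.42) with an unadjusted p of 0.0361 in edgeR. Its adjusted p was 0.958, as for the other 4 named here, and without TRIM9 replicate 2 the value was -1.17. miR-3615, described above, gave -0.44 (SE 0.18), with -0.57 within set 1 and -0.30 within set 2. It was the most abundant of the 5 and had the smallest SE among them, and it stood at -0.47 without TRIM9 replicate 2. miR-5699-3p had 2.91 and 3.36 CPM in TRIM9 libraries, against 5.82 and 8.21 CPM in GFP libraries, at -1.16 (SE 0.49). miR-5010-3p, from within the proton pump gene ATP6V0A1, had 2.59 and 2.64 CPM in TRIM9 libraries, against 7.82 and 3.75 CPM in GFP libraries, at -1.14 (SE 0.49). Both were low in each TRIM9 library, without overlap. Without TRIM9 replicate 2 they stood at -1.28 and -1.17, and without GFP replicate 1 miR-5010-3p was at -0.54. miR-1257 was higher, with 2.59 and 4.08 CPM in TRIM9 libraries, against 1.64 and 0.714 CPM in GFP libraries, at 1.47 (SE 0.62). Without TRIM9 replicate 2 it was at 1.11, and without GFP replicate 2 at 0.96. The comparisons of both triggers with GFP share the GFP libraries, where this miRNA was lowest.

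Between the triggers, BCL2L11 against TRIM9, 0 of 93 passed the adjusted threshold in edgeR, beside 0.226% of all miRNAs tested. At an unadjusted p under 0.05 there were 4 of 93, beside 2.71%, where 4 are 4.3%. DESeq2 gave 0 and 3, beside 0.677% and 2.26% of all, where 3 are 3.23% of 93. The count of 4 became 12 without TRIM9 replicate 2, which is 12.9% beside 8.04% of all, and 1 without BCL2L11 replicate 1, which is 1.08% beside 2.47%. The median log2 fold change was 0.08 over the 93 and -0.02 over all. The libraries did not overlap for 21 that were higher and 10 that were lower with BCL2L11, beside 14.7% and 16% of all tested, where 21 and 10 are 22.6% and 10.8% of 93.

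Of the 5 of lowest p, none passed (adjusted p = 0.989 each, edgeR). miR-3615 was again among them, at 0.51 (SE 0.18), with 0.45 within set 1, 0.56 within set 2 and 0.52 without TRIM9 replicate 2. miR-12136 had 3.16 and 8.39 CPM in BCL2L11 libraries, against 16.2 and 11.3 CPM in TRIM9 libraries, at -1.25 (SE 0.46). The groups did not overlap, but the difference was -2.19 within set 1 and -0.41 within set 2. It was -1.47 without TRIM9 replicate 2, -0.68 without BCL2L11 replicate 1 and -2.12 without BCL2L11 replicate 2. Its gene, per RefSeq at chr1:632615-632685, lies next to the mitochondrial pseudogenes MTCO1P12 and MTCO2P12. miR-3180-5p had 7.81 and 3.22 CPM in BCL2L11 libraries, against 1.46 and 2.64 CPM in TRIM9 libraries, at 1.46 (SE 0.57), which was 0.71 without BCL2L11 replicate 1 and 1.91 without TRIM9 replicate 2. miR-3065-5p, whose gene lies opposite that of miR-338, had 6.14 and 5.54 CPM in BCL2L11 libraries, against 2.59 and 3.12 CPM in TRIM9 libraries, at 1.04 (SE 0.42), or 1.17 without TRIM9 replicate 2. Neither overlapped. The fifth was miR-4521, at -0.52 (SE 0.23), whose values are given above and which differed by -0.87 within set 1 and by -0.10 within set 2. Without TRIM9 replicate 1 it was at -0.14 and without TRIM9 replicate 2 at -0.78, so its size rests on 1 library.

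**Figure D2:**
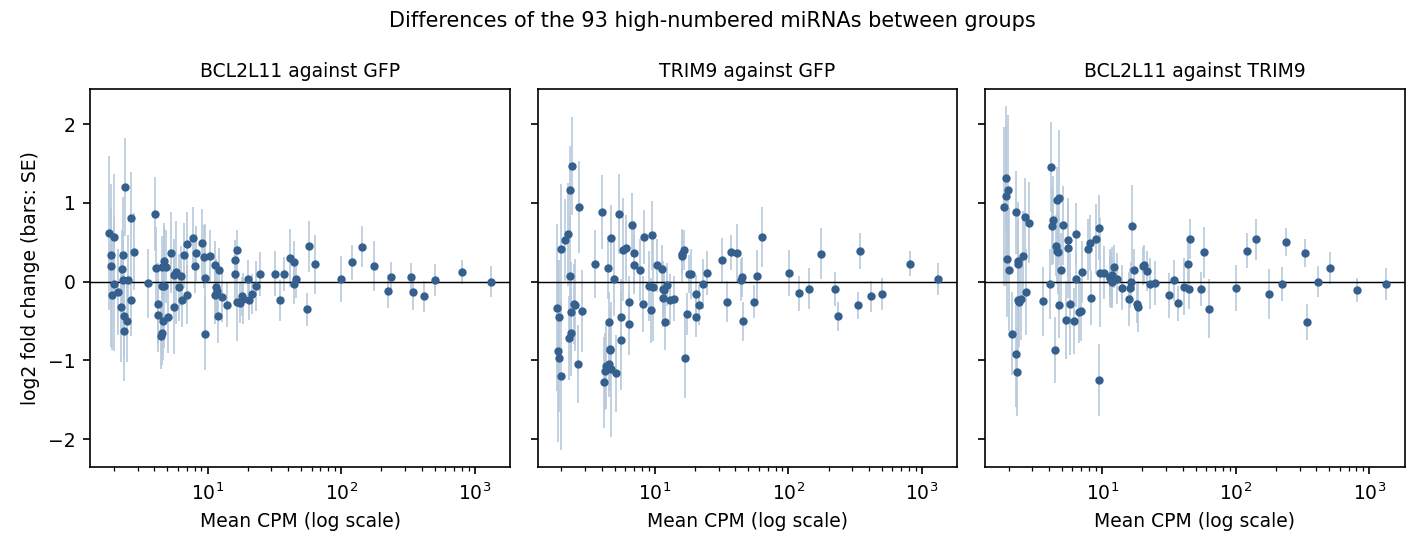
log2 fold change with its standard error (bars, edgeR) against mean level in CPM on a log axis, for the 93 high-numbered miRNAs in each comparison. Points beyond 1 in either direction number 1 for BCL2L11 against GFP, 10 for TRIM9 against GFP and 8 for BCL2L11 against TRIM9, and no point passed the adjusted threshold.

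The authors' deposited tables were read for the same 93 names. In the authors' deposited table of miRNA counts, 0 of the 93 had a p under 0.05 for BCL2L11 against GFP and 0 for TRIM9 against GFP, beside 0.347% and 0.867% of all its entries. The lowest p in the authors' deposited table was 0.115 for miR-1299 with BCL2L11 and 0.0524 for miR-3615 with TRIM9, both also among the 5 of lowest p in edgeR. In the authors' deposited table of isoforms the counts were 0 and 0 again, beside 0.151% and 0.15% of its entries.

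Some of the 93 passed between the library sets. A term for the sets was added beside the groups. At an adjusted p of 0.05 edgeR called 6 of 93 (6.45%) in set 2 against set 1, beside 12.6% of all tested. The share among the 93 was thus the smaller one. With at least 100 counts in 2 libraries required, 4 of 32 were called, beside 21.7% of all. The 93 had fewer reads, with a median of 287 against 1247 in other miRNAs with at least 60 reads. The part of depth in the smaller share was not tested. Of the 6, 3 were higher and 3 lower (3.23% each), beside 4.74% and 7.9% of all. DESeq2 called 5 of 93, beside 10.4% of all. No call was left without BCL2L11 replicate 1 or without BCL2L11 replicate 2 (0 of 93 each, beside 2.89% and 0.413% of all). A difference of the same sign in all 3 groups was seen for 17 that were higher and 10 that were lower in set 2, beside 19.6% and 24.6% of all, where 17 and 10 are 18.3% and 10.8% of 93. Scaling by total reads instead of TMM moved the median log2 difference of all miRNAs to -0.27. With it 3 of the 93 were called, 0 higher and 3 lower, beside 9.03% of all. With DESeq2's size factors 8 of the 93 were called, the 6 among them, beside 12.4% of all. The 3 calls of higher miRNAs were thus kept with either kind of scaling factor and lost with total reads.

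miR-3909, from chr22:35335640-35335758 within the endosomal adaptor gene TOM1, was higher in set 2. It had 211 against 142 CPM in BCL2L11, 254 against 141 CPM in TRIM9 and 174 against 134 CPM in GFP. All 3 libraries of set 2 lay above all 3 of set 1, at a log2 difference of 0.60 (SE 0.12) and an adjusted p of 0.00224 (edgeR). miR-1278, from chr1:193136503-193136583 within CDC73, a subunit of the PAF1 elongation complex, had 125 against 73.6 CPM in BCL2L11, 119 against 91.2 CPM in TRIM9 and 110 against 84.7 CPM in GFP. Again set 2 lay above set 1 without overlap, at 0.50 and an adjusted p of 0.0167 (edgeR). miR-1299 had 195 against 157 CPM in BCL2L11, 148 against 94.6 CPM in TRIM9 and 142 against 116 CPM in GFP. The sets overlapped across groups while replicate 2 was higher within each, at 0.42 and an adjusted p of 0.0342 (edgeR).

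The 3 lower ones had fewer reads. miR-3131, from within the hedgehog ligand gene IHH, had 4.82 against 15.3 CPM in BCL2L11, 9.12 against 9.38 CPM in TRIM9 and 3.75 against 15.6 CPM in GFP. The difference, -1.23 on the log2 scale with an adjusted p of 0.0231 (edgeR), rested on BCL2L11 and GFP, since the TRIM9 libraries were level. miR-1306-5p, from chr22:20086058-20086142 within DGCR8, the partner of DROSHA, had 13.0 against 22.9 CPM in BCL2L11, 5.04 against 16.3 CPM in TRIM9 and 18.9 against 24.0 CPM in GFP. It was lower in set 2 in each group, most in TRIM9, at -0.86 and an adjusted p of 0.0231 (edgeR). miR-4717-3p had 3.75 against 7.62 CPM in BCL2L11, 1.68 against 3.56 CPM in TRIM9 and 1.43 against 10.4 CPM in GFP, at -1.64 and an adjusted p of 0.0232 (edgeR). Without GFP replicate 1, or without GFP replicate 2, the difference of miR-4717-3p was -1.04, that of miR-3131 was -0.83 and that of miR-1299 was 0.48, and none passed. Without TRIM9 replicate 1, or without TRIM9 replicate 2, miR-1306-5p, at -0.58, and miR-1299, at 0.29, did not pass.

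**Figure D3:**
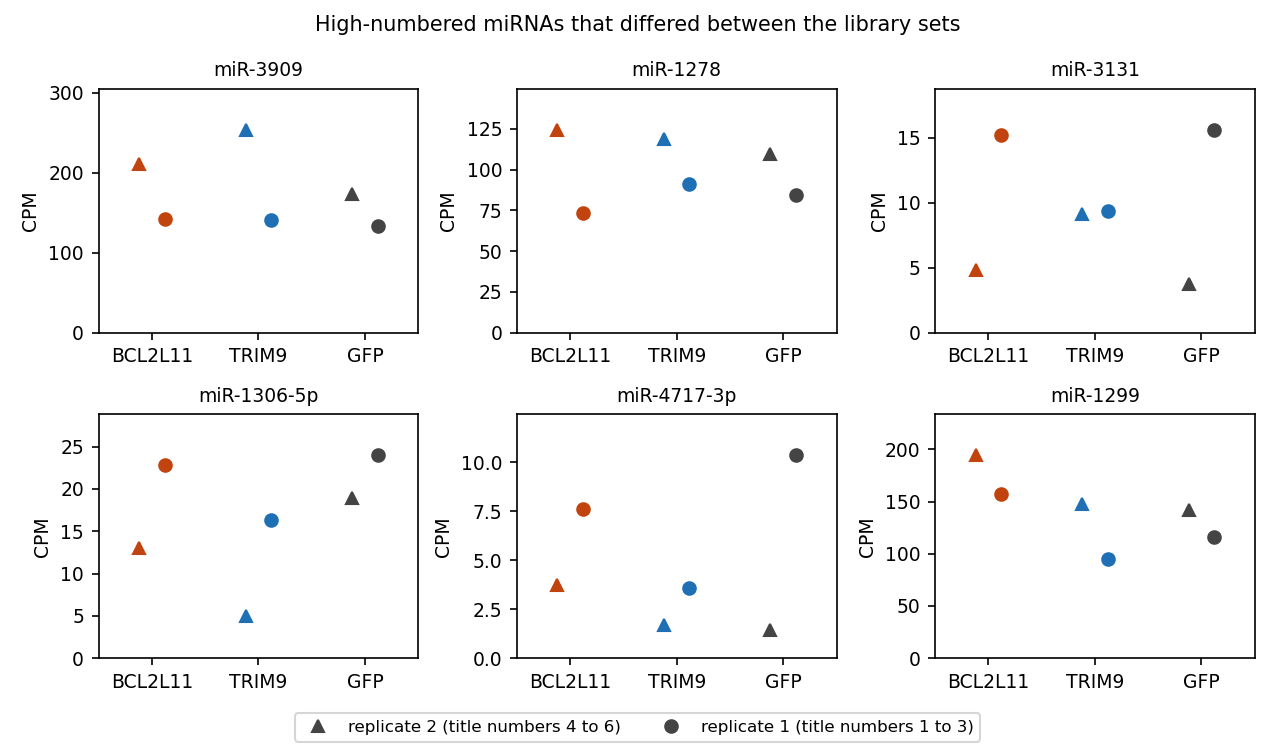
Level of the 6 high-numbered miRNAs that passed between library sets, in TMM-normalised CPM, by group. Triangles are set 2 (replicate 2) and circles set 1 (replicate 1). miR-3909 and miR-1278 lie higher in set 2 in every group, and the TRIM9 pair of miR-3131 is level at 9.12 and 9.38.

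Arms of the same hairpin mostly differed widely in reads. Of the 93, 59 are named by arm, and the other arm was listed for 36 of them. In 25 of these 36 the named arm held over 90% of the hairpin's reads, and the median was 95.3%. The 93 were chosen by their reads, so the named arm was likely to be the larger one from the outset. Of the 36 names 10 are both arms of 5 hairpins, so each of these hairpins counts for either arm. miR-1180-3p stood at 26155 reads against 3 for its 5p arm. Both arms passed the read minimum in 5 hairpins, those of miR-1307, miR-4677, miR-1306, miR-3157 and miR-1285. miR-1307-3p outnumbered miR-1307-5p 18.2 and 14.2 times in BCL2L11 libraries, 14.8 and 16.9 times in TRIM9 libraries and 17.9 and 20.3 times in GFP libraries. The arms of miR-3157 were the closest of the 5, with 3p above 5p 3.06 and 3.97 times in BCL2L11 libraries, 2.59 and 4.14 times in TRIM9 libraries and 3.12 and 3.51 times in GFP libraries. miR-1306-5p outnumbered miR-1306-3p 11.2 and 6.08 times in BCL2L11 libraries, 5.32 and 3.0 times in TRIM9 libraries and 7.76 and 6.62 times in GFP libraries. The ratio was lower in replicate 2 of each group, where the 5p arm was lower. In TRIM9 replicate 2 it rests on 21 and 7 reads. miR-4677-3p outnumbered miR-4677-5p 8.46 and 13.0 times in BCL2L11 libraries, 13.3 and 16.1 times in TRIM9 libraries and 5.26 and 9.24 times in GFP libraries. The 5p arm was the one that was low in TRIM9, while the 3p arm had 38.7 and 54.2 CPM in TRIM9 libraries, against 41.1 and 47.8 CPM in GFP libraries, which overlap. For miR-1285 the 3p arm had 1493 reads and the 5p arm 62, and the hairpin has more than 1 gene.

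Few of the 93 came from the special classes of hairpin that were looked up. Mirtrons were taken from a fixed list of 10 numbers, and other names were not checked for this class. Of 8 listed names from that list none reached 60 reads, and the highest, miR-1226-3p, had 47. The hairpins of the serotonin receptor gene HTR2C on the X chromosome gave 3 listed names and 1 of the 93, miR-1298-5p, with 34 and 24 reads in BCL2L11 libraries, 44 and 33 in TRIM9 libraries and 22 and 40 in GFP libraries. Hairpins opposite an older one gave 2 of the 93, miR-3065-5p with 150 reads and miR-3074-5p with 148. On the other strand miR-338-5p had 235 reads and miR-24-3p, which has a second gene, 12218. The gene of miR-6516 overlaps the small Cajal body RNA gene SCARNA16 on its strand.

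Most of the 93 lie within other genes. The deposited transcript tables (hg38) held a gene for 88 of them, and 72 lay inside a host gene on the same strand, 67 genes in all. These 72 accounted for 81.5% of the reads. A miRNA with several genes was counted whole here if any of them had a host. This applies to miR-3158-3p (42664 reads), whose gene MIR3158-2 has no host on its strand, and to miR-1285-3p, miR-1285-5p and miR-3688-3p. Reads cannot be split between such genes. In 4 of the 72 the hairpin lies within 500 bases of the host's annotated start, namely miR-7706 in AKAP13, miR-2110 in CCDC186, miR-4787-3p in DOCK3 and miR-1292-5p in NOP56, a component of box C/D ribonucleoproteins. Further hosts of the 15 most abundant miRNAs were MLLT3, a gene of the super elongation complex that holds miR-4473 (4.76 to 8.40 FPKM), ARL10, a small GTPase gene that holds miR-1271 (2.39 to 4.595 FPKM), TOM1 and CDC73. LRRC69, which holds miR-4661, ran from 0.728 to 2.96 FPKM. Of the 16 without a host, miR-4521, miR-3615, miR-1299 and miR-1269b had most reads. The 5 miRNAs with no gene in the transcript tables were not given a host. By RefSeq position miR-10525-3p, among the 15 most abundant, lies within GTF2IRD1 on its strand. Likewise miR-1843 lies within COP1, miR-10523-5p within ERGIC1 and miR-12136 within AL669831.3.

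Among the 72 miRNAs with a host, host mRNA level and miRNA level showed no common order. Over these Spearman's rho between mean host FPKM and summed reads was 0.0226, as a description across miRNAs that partly share hosts and all share libraries. High-numbered miRNAs under 60 reads and their hosts are left out, so the value does not speak for the low end of miRNA levels. Hosts between 1 and 5 FPKM held 27 of the 72 with a median of 222 reads, and hosts at 20 FPKM or more held 17 with a median of 267. miR-1292-5p had 267 reads where NOP56 averaged 240 FPKM, whereas miR-7974 had 16327 reads where ZNF653 averaged 3.51 FPKM. At the low end, miR-1298-5p had 197 reads with HTR2C at 0.0301 and 0.0371 FPKM in BCL2L11 libraries, 0.0568 and 0.0836 FPKM in TRIM9 libraries and 0.0471 and 0.0958 FPKM in GFP libraries. Likewise miR-3131 had 312 reads with IHH at 0.0191 to 0.121 FPKM. Both hosts were thus near 0 in every poly-A library while the miRNA was counted in every small RNA library.

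**Figure D4:**
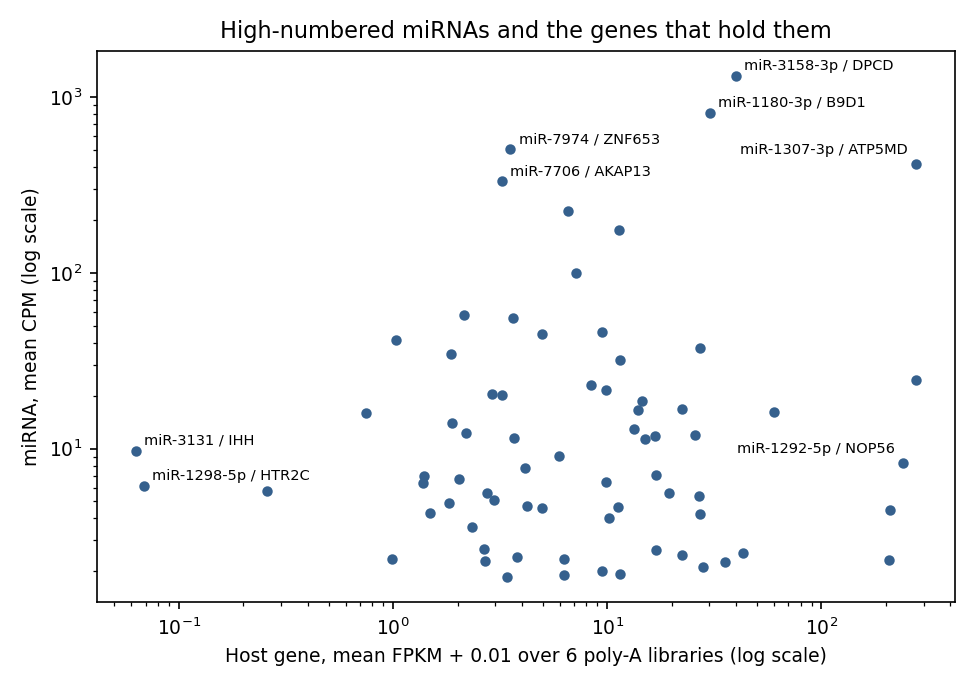
Mean level of 72 high-numbered miRNAs (CPM over 6 small RNA libraries) against mean FPKM plus 0.01 of the host gene over 6 poly-A libraries, both on log axes. The points form no line (rho 0.0226), and miR-3131 and miR-1298-5p are counted although IHH and HTR2C are near 0.

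No host gene passed for a trigger in limma. Of the 67 hosts 63 were tested on log2 of FPKM plus 1 among 15183 genes. For BCL2L11 against GFP 0 of 63 passed, beside 0.00659% of all genes, and 0 had an unadjusted p under 0.05, beside 0.547%. For TRIM9 against GFP 0 of 63 passed, beside 0.00659%, with 0 at an unadjusted p under 0.05, beside 1.15%. For BCL2L11 against TRIM9 the counts were also 0 and 0, beside 0.0132% and 0.645%. The median log2 differences of the hosts were -0.11, -0.09 and -0.02, beside -0.08, -0.04 and -0.04 over all genes.

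The host of lowest p for TRIM9 against GFP was SDCCAG8, a centrosomal protein gene that holds miR-4677. It had 3.59 and 4.09 FPKM in TRIM9 libraries, against 6.87 and 5.75 FPKM in GFP libraries. The groups did not overlap, at a log2 difference of -0.59 (SE 0.29) that did not pass (limma, adjusted p = 0.9999). In BCL2L11 libraries it had 4.62 and 4.71 FPKM. The hairpin's 5p arm, given above, had the lowest p of the 93 in the same comparison, and its values too were lower in both TRIM9 libraries. The 3p arm, with 1436 reads against 149 for the 5p arm, had 38.7 and 54.2 CPM in TRIM9 libraries. In GFP libraries the 3p arm had 41.1 and 47.8 CPM, so these groups overlapped. For miR-5010-3p the host went the other way, with ATP6V0A1 at 35.8 and 25.5 FPKM in TRIM9 libraries, against 24.4 and 28.7 FPKM in GFP libraries, which overlap. For BCL2L11 against GFP the lowest p was that of TAF1D, a factor of RNA polymerase I transcription and the host of miR-1304-5p. It had 44.6 and 56.3 FPKM in BCL2L11 libraries, against 75.1 and 70.8 FPKM in GFP libraries, at -0.53 (SE 0.33), which did not pass. GNGT1 and NDUFAF6 followed in both comparisons with GFP. GNGT1, host of miR-4652-5p, was at -0.39 (SE 0.29) with BCL2L11 and at -0.52 (SE 0.29) with TRIM9. The first was -0.25 without GFP replicate 1 and the second -0.33 without TRIM9 replicate 1. NDUFAF6, a complex I assembly factor gene that holds miR-3150a-5p, was at -0.37 (SE 0.28) with BCL2L11 and at -0.49 (SE 0.28) with TRIM9. For BCL2L11 against TRIM9 the lowest were ENTPD1-AS1 at -1.06 (SE 0.71), SYT1 at 0.51 (SE 0.47) and ATP6V0A1 at -0.32 (SE 0.30). ENTPD1-AS1 was at 0.06 without BCL2L11 replicate 1 and SYT1 at -0.11 without TRIM9 replicate 1, so both signs rest on 1 library, and ATP6V0A1 was at -0.08 without TRIM9 replicate 1.

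Between the sets, the hosts of the miRNAs that passed, and that of the most abundant miRNA, went with their miRNA in some cases and against it in others. CDC73 had 9.29 against 3.82 FPKM in BCL2L11, 10.6 against 4.16 FPKM in TRIM9 and 9.66 against 5.41 FPKM in GFP (set 2 against set 1). miR-1278, which it holds, was also higher in set 2. TOM1 had 7.96 against 14.2 FPKM in BCL2L11, 8.61 against 15.4 FPKM in TRIM9 and 10.7 against 11.2 FPKM in GFP, so the host was lower in set 2 where miR-3909 was higher. DGCR8 was lower in set 2 in each group, as was miR-1306-5p, with 18.5 against 22.7 FPKM in BCL2L11, 18.8 against 23.0 FPKM in TRIM9 and 24.1 against 26.1 FPKM in GFP. IHH, the host of miR-3131, was near 0 in both sets, as given above. DPCD, a gene named for primary ciliary dyskinesia, had 26.5 against 53.9 FPKM in BCL2L11, 29.97 against 50.03 FPKM in TRIM9 and 29.0 against 49.7 FPKM in GFP. miR-3158-3p was likewise lower in set 2 in BCL2L11 and GFP, but higher in TRIM9. These are values side by side, with no background over all genes for the difference between the poly-A sets. Whether the small RNA and poly-A libraries of a number came from the same culture is not stated in the labels.

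The 10 genes of the miRNA pathway (DROSHA, DGCR8, XPO5, DICER1, TARBP2, AGO1 to AGO4 and DBR1, the debranching enzyme that mirtrons need) were all tested, and by limma 0 passed and 0 had an unadjusted p under 0.05 in each of the 3 comparisons. DROSHA, the nuclear RNase, had 17.3 and 19.96 FPKM in BCL2L11 libraries, 15.7 and 20.3 FPKM in TRIM9 libraries and 18.5 and 21.1 FPKM in GFP libraries. DGCR8 had 22.7 and 18.5 FPKM in BCL2L11 libraries, 23.0 and 18.8 FPKM in TRIM9 libraries and 26.1 and 24.1 FPKM in GFP libraries. Its values in both trigger groups lay below those in GFP, at -0.28 (SE 0.29) with BCL2L11 and -0.26 (SE 0.29) with TRIM9, neither of which passed. DICER1, which makes the mature duplex and holds miR-3173, had 5.56 and 15.9 FPKM in BCL2L11 libraries, 4.16 and 13.5 FPKM in TRIM9 libraries and 6.37 and 15.6 FPKM in GFP libraries. AGO2 ran from 3.11 to 9.49 FPKM. For DICER1 the gap was between replicates, with every replicate 2 above every replicate 1, while the groups overlapped.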

How the data were processed

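HEK293T cells gave 6 small RNA and 6 poly-A libraries. The submitters' processing notes name hg38, STAR, cutadapt 3.4, DESeq2 1.20.0 and StringTie 2.1.3. The deposited counts are whole reads for each mature miRNA in each library, not normalised. The deposited transcript tables hold a coverage signal and an FPKM for 250719 transcripts, per the file headers. The authors' deposited miRNA tables gave, per the file headers, a mean normalised signal (in some its log10), the log2 fold change, a test statistic (a score) and a p-value. The authors' deposited gene tables were not used.

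Counts were fitted in edgeR 4.0.16 (R 4.3.3; TMM, filterByExpr, glmQLFit and glmQLFTest, group only, 6 libraries in 1 fit), and 443 miRNAs were tested, all 93 described here among them. DESeq2 1.42.0 was an alternative. The FPKM of a gene's transcripts was summed, 1 was added, and the log2 was modelled by limma 3.58.1 with a trend and groups only, keeping genes that reached 1 FPKM in 2 or more libraries. p was two-sided, adjusted by Benjamini-Hochberg over all features tested, threshold 0.05. A host gene is one on the same strand whose span holds the hairpin, and where there were several the one of highest mean FPKM was used. The group fits of edgeR and limma were also run on simulated data as a check of the code, with outcomes not given here.

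The members, lists and tests were chosen with earlier results of these data known. Named with values were the 15 miRNAs of highest mean level, those past the threshold per comparison or otherwise the 5 of lowest p, listed classes, hairpins with both arms, the edge of the rule, and hosts of these or otherwise the 3 of lowest p. Chosen after their values were seen were miR-3174, miR-4423-3p, miR-1292-5p, TOM1, CDC73, DGCR8 and DPCD as set comparisons, and the hosts near 0. Intervals and limits cover counting error only, since the reads carry no molecular identifiers in the sources used here.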

Additional observations from a re-analysis of the deposited data

How the results depend on the processing

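In the 3 comparisons between groups the count of high-numbered miRNAs past the threshold stayed at 0 under each of 13 alternatives: another normalisation, filter or tool, fewer groups in the fit, a term for the sets, or 1 library left out. With the term for the sets (replicate block) the unadjusted counts were 1, 7 and 9 for BCL2L11 against GFP, TRIM9 against GFP and BCL2L11 against TRIM9, beside 2.71%, 7.9% and 8.8% of all. No pairing is stated in the labels. Deviations of the sets from the group means correlated at 0.19 to 0.36 between groups over all miRNAs, and at -0.11 to 0.36 over the 93. Each named miRNA kept its sign under the alternatives run. The calls between the sets were 3 with total counts, beside 9.03% of all. They were 8 with DESeq2's size factors and 8 with no filter, beside 12.4% and 4.94% of all. These calls also depended on single libraries, as given above for the BCL2L11 replicates. The cause was not tested. The share difference of BCL2L11 against GFP was 0.0112 points with miR-148a-3p left out of the denominator. With 1 library left out it ran from -0.0674 to 0.0182, TRIM9 against GFP from -0.136 to 0.0310 and BCL2L11 against TRIM9 from -0.0555 to 0.112. Host calls stayed at 0. With 1 library left out the log2 difference between BCL2L11 and TRIM9 ran from -2.18 to 0.061 for ENTPD1-AS1, reversed without BCL2L11 replicate 1, and from -0.11 to 1.14 for SYT1, reversed without TRIM9 replicate 1. Depth limits the miRNAs under 20 CPM most.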
